A study of Homo sapiens with 6 samples.

Results

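Matrix metalloproteinases (MMPs) are zinc enzymes that cut collagens, laminins and other proteins of the extracellular matrix, and tissue inhibitors of metalloproteinases (TIMPs) are small secreted proteins that block their active sites. The 10 genes described here are 7 MMP genes (MMP1, MMP2, MMP3, MMP9, MMP10, MMP14 and MMP15) and 3 TIMP genes (TIMP1, TIMP2 and TIMP3), of 20442 genes in the deposited table. They were selected on their symbols with the fold changes of si-KNSTRN over si-NC cells already known. Their values in that comparison are therefore given as a description, with calls but without printed p-values, and nothing is supported with them. The cells were T24, an established line of human bladder tumour epithelium, left 24 h to attach and then kept 24 h with either si-KNSTRN, an siRNA aimed at the mitotic spindle gene KNSTRN, or the control siRNA si-NC. Each group had 3 libraries, which the submitters call biological replicates. Below, "control" stands for si-NC and "knockdown" for si-KNSTRN, and values per library are in the order of replicates 1, 2 and 3. All 6 libraries come from this single line, and only 1 siRNA label against KNSTRN was used, so effects of that siRNA on other genes cannot be told apart from the loss of KNSTRN.

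Most MMPs are made as inactive precursors, whose propeptide has to be removed by plasmin, furin-like enzymes or other MMPs. Collagenases such as MMP1 cut fibrillar collagen, the stromelysins MMP3 and MMP10 cut a broad range of matrix proteins and activate other MMPs, and gelatinases (MMP2 and MMP9) cut denatured and basement membrane collagen. MMP14 and MMP15 are anchored in the plasma membrane, where MMP14 together with TIMP2 activates the precursor of MMP2. In epithelial and tumour cells, transcription of MMP1, MMP3 and MMP10 is known to respond to inflammatory cytokines and growth factors through AP-1 factors, which bind the sequence TGAGTCA and close variants.

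The libraries held 16386799 to 20596074 counted reads each. KNSTRN itself gave 777, 663 and 762 reads in control and 269, 245 and 226 in knockdown libraries, and its level fell by 1.62 on the log2 scale (SE 0.07, adjusted p = 1.7e-11 by edgeR's quasi-likelihood test). The si-KNSTRN library 3 stood apart from the other libraries of its group: a chi-square comparison of read counts gave 10.7 and 7.25 per degree of freedom against si-KNSTRN libraries 1 and 2, which gave 2.68 against each other. In the control group, library 3 likewise gave 4.49 and 4.16 against libraries 1 and 2, which gave 2.21 against each other. Values without either library 3 are given where they matter. Of 16 urothelial and epithelial marker genes, 9 had enough reads to test, with KRT7, KRT8 and KRT18 at 812 to 1253 CPM (reads scaled to library size with TMM factors) over the 6 libraries, whereas KRT5, CDH1 and UPK3A had no read. Of 10 fibroblast, 8 leukocyte and 5 endothelial markers, 3, 2 and 1 could be tested. The summed fibroblast markers lay at 25.4 to 26.9 CPM in si-NC and 14.8 to 16.7 CPM in si-KNSTRN libraries, with COL1A2 at 0 reads and DCN and LUM at 0 or 1. Nearly all of the sum was COL1A1, ACTA2 and PDGFRB, the 3 that could be tested. Their means were 13.3, 10.8 and 2.03 CPM in si-NC and 11.1, 3.97 and 0.550 CPM in si-KNSTRN libraries. All 3 were called lower (adjusted p under 0.05 by edgeR), as were 31.3% of all genes tested. The summed leukocyte markers lay at 30.8 to 36.1 and 46.0 to 48.3 CPM, almost all of it CD68, with PTPRC at 0 to 2 reads and CD3E at 0. CD68 was called higher, by 0.48 on the log2 scale. The summed endothelial markers lay at 0.549 to 0.837 and 1.08 to 1.72 CPM. The part of these marker differences in the results below was not tested.

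Promoter sequences are shown for the stretch in which the factors known for MMP genes bind. RefSeq start sites (GRCh38.p14) gave the 250 bases before the start for MMP10, MMP14, MMP15, TIMP1 and TIMP3, and MMP1, MMP2, MMP3, MMP9 and TIMP2 had no entry. Shown are MMP10, the gene of the 5 with the greatest fold change in si-KNSTRN cells, and TIMP1 and MMP14, the most abundant inhibitor and protease. Each line reads 5′ to 3′ on the gene's strand, from chr11:102780629-102780878 (minus strand) for MMP10, chrX:47582186-47582435 (plus strand) for TIMP1 and chr14:22836335-22836584 (plus strand) for MMP14. Capitals mark matches, searched on both strands, to the AP-1 word TGAGTCA, to its variants TGANTCA (N stands for any base) and also TGAGTAA, to the ETS word CAGGAAG, to the TATA box word TATAAA and to the GC box word GGGCGG. A match on the other strand appears as its reverse complement.

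MMP10: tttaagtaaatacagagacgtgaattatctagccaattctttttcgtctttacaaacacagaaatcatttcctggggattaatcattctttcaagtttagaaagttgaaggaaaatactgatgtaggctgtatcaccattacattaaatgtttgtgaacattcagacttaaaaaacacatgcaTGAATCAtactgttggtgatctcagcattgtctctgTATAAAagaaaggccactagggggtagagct

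TIMP1: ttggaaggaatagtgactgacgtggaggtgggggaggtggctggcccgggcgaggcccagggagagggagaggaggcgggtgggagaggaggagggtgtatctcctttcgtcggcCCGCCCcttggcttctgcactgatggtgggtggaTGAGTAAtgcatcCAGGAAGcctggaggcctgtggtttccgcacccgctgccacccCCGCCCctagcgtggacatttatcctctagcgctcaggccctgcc

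MMP14: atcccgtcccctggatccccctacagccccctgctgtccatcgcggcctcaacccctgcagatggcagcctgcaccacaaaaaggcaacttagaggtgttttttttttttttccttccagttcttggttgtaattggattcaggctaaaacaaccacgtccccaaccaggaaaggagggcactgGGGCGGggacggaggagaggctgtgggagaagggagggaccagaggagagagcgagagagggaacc

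The MMP10 window held TGAATCA, a match to TGANTCA, 67 to 61 bases before the start and TATAAA 31 to 26 bases before it. The TIMP1 window held TGAGTAA 101 to 95 bases before the start, CAGGAAG 88 to 82 bases before it and 2 GC boxes. MMP14 and MMP15 held GC boxes only, 1 and 5 of them, and TIMP3 held 5. The word TGAGTCA itself was in none of the 5 windows. Among all 35116 promoters of the table, 4.2% held TGAGTCA, 6.57% TGANTCA (which includes TGAGTCA), 2.21% TGAGTAA, 10.5% CAGGAAG, 10.7% TATAAA and 42.6% GGGCGG in the same window. The words TGANTCA and TGAGTAA were added after the sequences had been read. A match is a match of letters, and no binding was measured here.

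Among the 10 genes, 7 had enough reads to be tested across all genes, and in these 7 the libraries of the groups did not overlap, with every si-KNSTRN library above every si-NC library. Over the 12650 genes tested, the groups did not overlap in 67.3%. All 7 were called higher at an adjusted p under 0.05, against a background of 62.5% of all genes tested called in either direction, 31.2% higher and 31.3% lower. The median log2 ratio (log2 of the fold change, knockdown over control) of the 7 was 1.08, against -0.01 for all genes tested. Because the genes were chosen with this comparison known, nothing is read from that count or from that median. MMP3 and MMP10 reached the read minimum in the si-KNSTRN libraries alone, so that they could enter the test only by being high there. MMP2, MMP9 and TIMP3 did not reach it. In RNA from a whole culture, more cells that express a gene and more RNA per cell cannot be told apart.

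**Figure D1:**
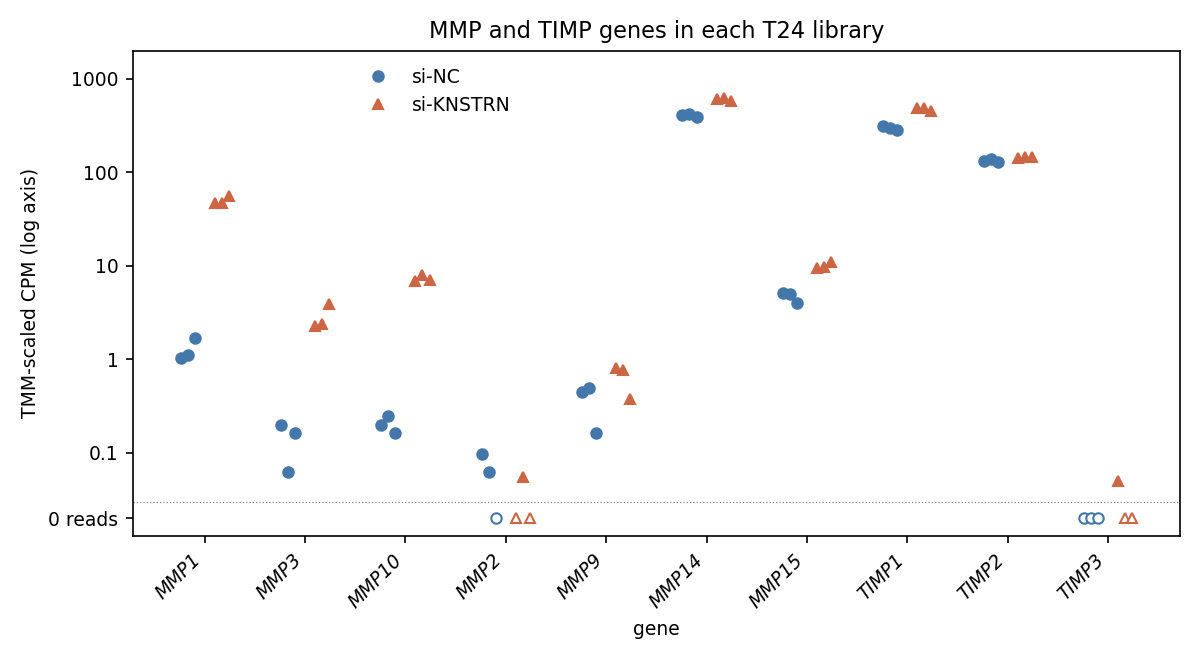
Level of each of the 10 genes in TMM-scaled CPM (log axis) in the 3 si-NC libraries (circles) and the 3 si-KNSTRN libraries (triangles), with libraries without a read as open symbols under the dotted line. MMP1 lies at 1.03 to 1.70 CPM in si-NC and 46.9 to 55.9 CPM in si-KNSTRN libraries, while MMP14, TIMP1 and TIMP2 lie above 100 CPM in all 6.

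The collagenase gene MMP1 (chromosome 11, 102789919 to 102798160, GRCh38) gave 21, 18 and 31 control reads and 927, 847 and 1038 knockdown reads. The si-NC libraries were uniformly low and the si-KNSTRN libraries uniformly high, with the highest value in library 3 of both groups. Its level was 1.29 ± 0.364 CPM in si-NC and 49.9 ± 5.18 CPM in si-KNSTRN cells (SD, n = 3 each), a log2 ratio of 5.27 (SE 0.13). Without si-KNSTRN library 3 the log2 ratio was 5.19, and without si-NC library 3 it was 5.53. The ratio of summed reads, scaled to library size, was 38.9 (95% exact interval 30.7 to 50.01 for counting error alone).

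The stromelysin genes lie on either side of MMP1. MMP10 (chromosome 11, 102770502 to 102780628) gave 4, 4 and 3 control reads and 138, 143 and 131 knockdown reads. It was close to the floor in all si-NC libraries, since 3 reads correspond to 0.146 to 0.183 CPM, and even among the si-KNSTRN libraries. Its level was 0.204 ± 0.0424 CPM in si-NC and 7.32 ± 0.526 CPM in si-KNSTRN cells (SD, n = 3), with a log2 ratio of 5.13 (SE 0.22) and a ratio of summed reads of 36.2 (interval 20.05 to 73.2). MMP3 (chromosome 11, 102835801 to 102843609) gave 4, 1 and 3 control reads and 45, 43 and 72 knockdown reads. Its si-KNSTRN library 3 stood well above the other two. The level was 0.141 ± 0.0704 CPM against 2.84 ± 0.895 CPM (SD, n = 3), with a log2 ratio of 4.22 (SE 0.38), 3.93 without si-KNSTRN library 3. The 8 si-NC reads leave the ratio of MMP3 poorly fixed, at 19.4 with an interval of 9.59 to 45.6. MMP3 and MMP10 shared 59 windows of 50 bases, 3.00% and 3.45% of their transcripts, and MMP1 shared 2.92% with the overlapping pseudogene WTAPP1.

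MMP1, MMP3 and MMP10 belong to a cluster of 9 MMP genes that spans 435 kb of chromosome 11 (102520508 to 102955732), within which the 3 genes take up 73.1 kb. The other 6 genes of the cluster could not be tested. MMP20 and MMP27 had no read in any library, MMP7, MMP8 and MMP12 had at most 1 read per library, and MMP13, a further collagenase gene at the end of the cluster, gave 4, 0 and 2 control reads and 18, 9 and 7 knockdown reads. The reads of MMP13 did not overlap between groups, and without the read minimum its log2 ratio was 2.39 (SE 0.61, adjusted p = 0.00066 by edgeR over 16458 genes). In that fit MMP7, MMP8 and MMP12 were not called (adjusted p = 0.46, 0.28 and 0.46 by edgeR). The ratio of the summed reads of MMP13 was 5.48 (interval 2.28 to 15.98). The nearest tested genes outside the cluster, named after their values were seen, had far smaller log2 ratios. These were -0.16 for TMEM123 on one side (SE 0.06, adjusted p = 0.025 by edgeR) and 0.35 for DCUN1D5 on the other (SE 0.05, adjusted p = 7.2e-06 by edgeR). MMP1, MMP3 and MMP10 were chosen with their rises known, so nothing is read from the contrast with these neighbours.

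**Figure D2:**
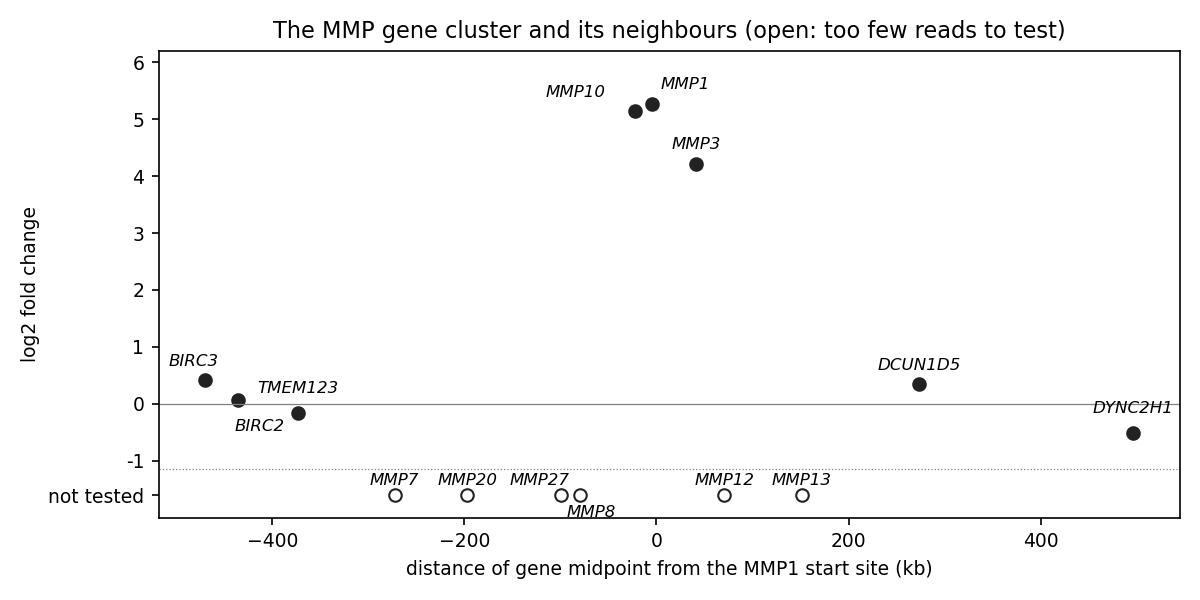
Log2 fold change (si-KNSTRN over si-NC) of the genes in and around the MMP cluster, against the distance of each gene's midpoint from the MMP1 start site in kb, with genes with too few reads to test as open circles below the dotted line. MMP10, MMP1 and MMP3 stand at 4.22 to 5.27, and the tested neighbours outside the cluster lie between -0.50 and 0.42.

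The gelatinase genes were nearly silent. MMP2 (chromosome 16, 55478830 to 55506691), which cuts basement membrane collagen, gave 2, 1 and 0 control reads and 0, 1 and 0 knockdown reads, at or below the floor in all 6. MMP9 (chromosome 20, 46008908 to 46016561) gave 9, 8 and 3 control reads and 16, 14 and 7 knockdown reads. Its groups overlapped, and library 3 was the lowest of both groups. Without the read minimum, its ratio of summed reads was 1.79 with a counting interval of 1.01 to 3.26, and its log2 ratio was 0.83 (SE 0.43). It was not called, and 11.15% of its windows were shared with the overlapping gene SLC12A5-AS1.

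Membrane-anchored MMP genes were expressed in both groups. MMP14 (chromosome 14, 22836585 to 22847758), a collagenase of the cell surface, gave 8253, 6729 and 7059 control reads and 11966, 11192 and 10664 knockdown reads. In CPM the si-NC libraries lay at 407, 419 and 388 and the si-KNSTRN libraries at 605, 620 and 574. The groups were thus well apart, at means of 404 ± 15.5 and 600 ± 23.5 CPM (SD, n = 3) and a log2 ratio of 0.57 (SE 0.05). MMP15 (chromosome 16, 58025754 to 58046901), a membrane-type relative, gave 105, 81 and 73 control reads and 188, 174 and 204 knockdown reads. Its level was 4.74 ± 0.635 against 10.0 ± 0.816 CPM (SD, n = 3), a log2 ratio of 1.08 (SE 0.12) from a base far below that of MMP14.

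The inhibitor genes differed from each other. TIMP1 (chromosome X, 47582436 to 47586789), an inhibitor of most secreted MMPs and a weak one of MMP14, gave 6359, 4815 and 5153 control reads and 9639, 8715 and 8466 knockdown reads. In CPM these were 313, 299 and 283 against 487, 483 and 456, so that the lowest si-KNSTRN library stood well above the highest si-NC library. The means were 299 ± 15.1 and 475 ± 17.1 CPM (SD, n = 3), with a log2 ratio of 0.67 (SE 0.05). TIMP1 lies within SYN1, which had 0 to 4 reads per library.

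TIMP2 (chromosome 17, 78852977 to 78925387), the inhibitor that bridges MMP14 and the MMP2 precursor, gave 2693, 2228 and 2362 control reads and 2794, 2648 and 2705 knockdown reads. In CPM these were 133, 139 and 130 against 141, 147 and 146, and the highest si-NC and the lowest si-KNSTRN library lay close together. The log2 ratio was 0.11 (SE 0.05). Its call was lost without si-NC library 1 or 3 (0.11 and 0.09) and without si-KNSTRN library 2 or 3 (0.10 and 0.11), and with upper-quartile scaling (0.07). TIMP2 shares 13.02% of its windows with overlapping genes, of which CEP295NL had 3 to 11 reads per library. TIMP3 (chromosome 22, 32801705 to 32863041), an inhibitor that is bound to the matrix, had a single read, in si-KNSTRN library 1, and none in the other 5 libraries.

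Levels of different genes were compared per length, as CPM divided by the length in kilobases of 1 principal GENCODE transcript (RPKM). In si-NC cells the order was TIMP1 at 335 ± 16.9, MMP14 at 108 ± 4.15, TIMP2 at 36.6 ± 1.23, MMP15 at 1.12 ± 0.150 and MMP1 at 0.653 ± 0.185 RPKM (SD, n = 3). The ranges of these 5 did not overlap. MMP9, MMP10 and MMP3 followed at 0.158, 0.116 and 0.0701 RPKM, and MMP9 overlapped with both of the others. In si-KNSTRN cells MMP1, at 25.3 ± 2.63 RPKM, stood next after TIMP2 at 39.6 ± 0.790, and MMP10 at 4.16 ± 0.299 RPKM stood above MMP15 at 2.36 ± 0.192 and MMP3 at 1.41 ± 0.444. TIMP1 at 533 ± 19.2 and MMP14 at 161 ± 6.29 RPKM remained the first 2 in the order.

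The 3 genes MMP1, MMP3 and MMP10 made up 0.661%, 0.648% and 0.981% of the summed per-length level of the 7 MMP genes in si-NC libraries 1 to 3. In si-KNSTRN libraries 1 to 3 they made up 14.9%, 14.9% and 17.97%, with MMP14 as nearly all of the rest. The summed TIMP level over the summed MMP level was 3.49, 3.27 and 3.33 in si-NC and 3.02, 2.93 and 2.89 in si-KNSTRN libraries. With the mean length of all annotated transcripts of a gene in place of the principal transcript, the ratio was 1.39 to 1.49 in si-NC and 1.38 to 1.42 in si-KNSTRN libraries. The groups then overlapped, so whether the TIMP to MMP ratio separates the groups depends on the choice of lengths. With those mean lengths the share of MMP1, MMP3 and MMP10 was 0.304% in si-NC and 6.76% in si-KNSTRN cells on average. These 3 genes were chosen with their large rises known, so nothing is read from the share staying apart. TIMP1 over MMP1 went from 542 ± 157 to 21.2 ± 2.79 per length (SD, n = 3). The MMP sums cover only the 7 chosen genes, and expressed MMP genes outside them are left out. Among these, MMP17 lay at 22.5 CPM in si-NC and 19.2 CPM in si-KNSTRN cells, and MMP19 at 9.19 and 12.1 CPM. The 7 genes were chosen with their fold changes known, so these ratios and shares do not describe all MMP genes.

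**Figure D3:**
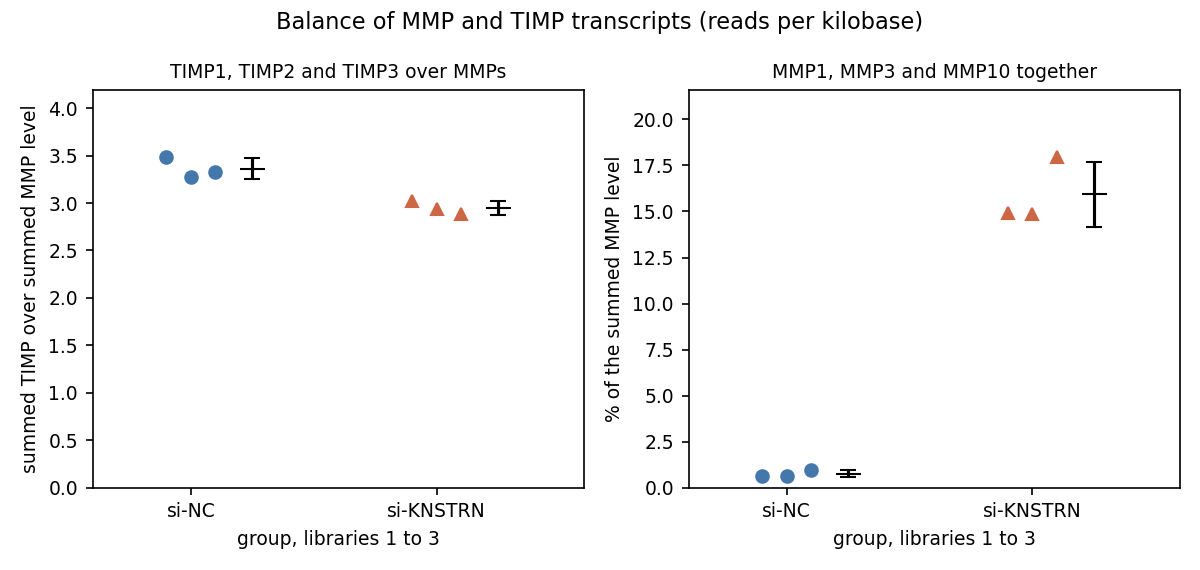
Ratio of the summed TIMP1, TIMP2 and TIMP3 level to the summed level of the 7 MMP genes (left) and percentage of the summed MMP level due to MMP1, MMP3 and MMP10 (right), per library, from reads per kilobase of the principal transcript. Bars show mean and SD of 3 libraries. The percentage goes from 0.764 to 15.9, whereas the ratio moves from 3.36 to 2.95. The sums leave out expressed MMP genes outside the 7, which were chosen with their fold changes known.

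The rest of the family was taken by name. It is what the choice of the 10 genes, made with the fold changes known, left over. Its direction is therefore not independent of that choice, and no contrast with the 10 genes is read from it. Of 18 further genes (16 MMP genes, TIMP4 and the membrane-anchored MMP inhibitor RECK), 8 could be tested, of which 1 was called higher and 4 lower, with a median log2 ratio of -0.20. Over all genes tested, 31.2% were called higher and 31.3% lower with a median of -0.01, so that the share called among these 8 was that of all genes, 62.5%. RECK fell from 23.6 ± 1.61 to 15.3 ± 1.22 CPM (SD, n = 3), by 0.63 on the log2 scale (SE 0.08, adjusted p = 4.4e-06 by edgeR), and it was lower in all 3 si-KNSTRN libraries than in any si-NC library. MMP25 and MMP17, both anchored by a lipid, fell by 0.57 (SE 0.13, adjusted p = 0.00098 by edgeR) and 0.23 (SE 0.07, adjusted p = 0.011 by edgeR). MMP19 rose by a log2 ratio of 0.39 (SE 0.10, adjusted p = 0.0031 by edgeR). MMP24 fell by 0.54 (SE 0.22, adjusted p = 0.041 by edgeR), but its transcript shares 18.7% of its windows with genes such as the overlapping MMP24OS, and the call was lost in 8 of 14 alternatives, among them without si-NC library 3 (log2 ratio -0.31). MMP25 shares 23.0% of its windows with its antisense gene, so that value is uncertain too. MMP16, MMP11 and TIMP4 were not called, at log2 ratios of 0.22, -0.16 and -0.07 (SE 0.15, 0.19 and 0.28). MMP16 was called higher without si-NC library 3 (0.39). Without si-KNSTRN library 2 neither MMP17 nor MMP24 was called, which left 3 called genes in place of 5. The remaining 10 genes had too few reads, and 3 of them (MMP20, MMP26 and MMP27) had none.

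**Figure D4:**
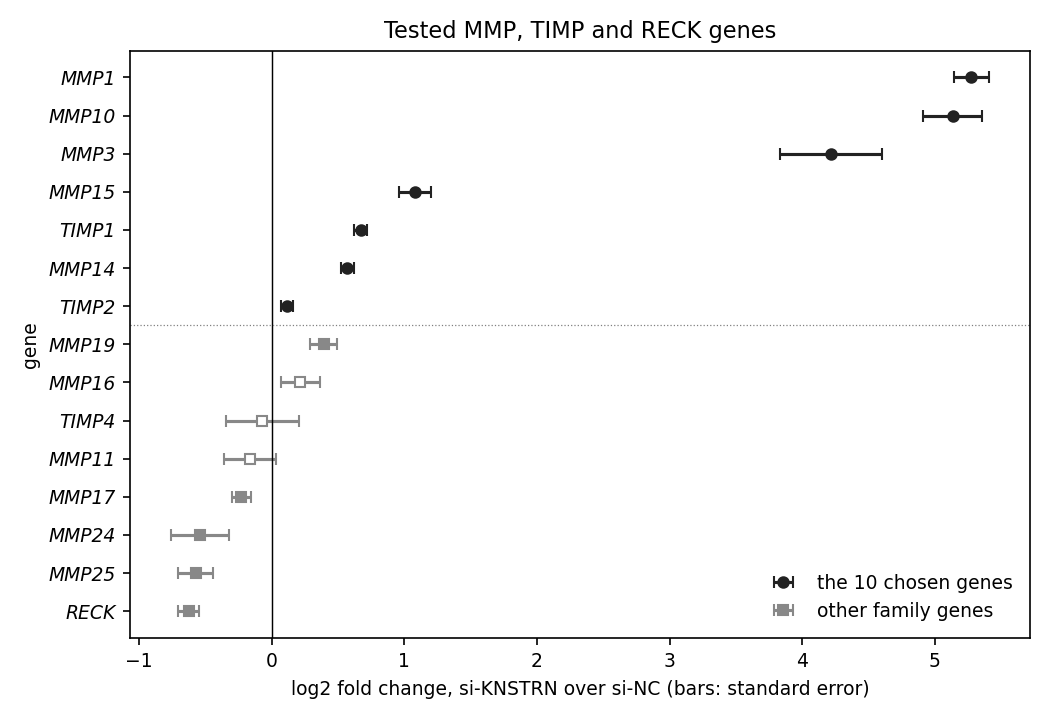
Log2 fold change (si-KNSTRN over si-NC) with its standard error for the 7 tested genes of the 10 (circles) and the 8 tested genes of the rest of the family (squares), with open symbols for genes not called. The chosen genes run from 0.11 to 5.27 and the others from -0.63 to 0.39. The 10 genes were chosen with these values known, so nothing is read from the contrast of the ranges.

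Of 21 ADAM and ADAMTS genes tested, 9 were called higher and 10 lower, with a median log2 ratio of -0.02, beside 31.2% higher and 31.3% lower over all genes tested. The membrane sheddase genes ADAM9 and ADAM10 fell by 0.66 each (SE 0.05 each), and ADAMTS9, a protease of proteoglycans, and ADAM19 rose by log2 ratios of 1.91 (SE 0.19) and 0.65 (SE 0.07).

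Of 15 tested genes that activate MMPs, hold them at the surface or clear them, 5 were called higher and 5 lower, with a median of -0.03, close to the shares of all genes tested (31.2% and 31.3%). PLAUR, the receptor gene that concentrates plasminogen activation on cells, rose from 110 ± 3.14 to 206 ± 4.42 CPM (SD, n = 3), a log2 ratio of 0.90 (SE 0.04). SERPINB2, an inhibitor of plasminogen activators, and TFPI2, an inhibitor of plasmin in the matrix, rose by log2 ratios of 6.86 (SE 0.10) and 1.83 (SE 0.05). LRP1, the receptor through which cells take up several MMPs and TIMP complexes, fell from 515 ± 17.8 to 219 ± 7.92 CPM, by 1.23 on the log2 scale (SE 0.05, adjusted p = 3.4e-12 by edgeR).

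All 13 tested genes on a list of cytokines, growth factors and other known inducers of MMP genes were called higher, with a median log2 ratio of 1.81, beside 31.2% called higher over all genes tested. That inflammatory genes were higher in these samples was known when the list was written. IL1A, a strong inducer of MMP1 in many cell types, rose from 36.5 ± 1.07 to 199 ± 12.99 CPM (SD, n = 3), with a log2 ratio of 2.45 (SE 0.06). CXCL8, IL6 and PTGS2 rose by log2 ratios of 1.98, 1.98 and 3.10. Of 19 transcription factor genes known to act on MMP promoters, 9 were called higher and 5 lower, with a median of 0.13, beside 31.2% and 31.3% over all genes tested. The AP-1 genes FOS, FOSB and JUNB rose by log2 ratios of 2.11 (SE 0.18), 1.04 (SE 0.09) and 0.97 (SE 0.06), and the ETS factor gene ETV1 fell by 0.92 (SE 0.08).

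Of 16 tested genes of collagens and other MMP substrates, 7 were called higher and 6 lower, with a median log2 ratio of 0.04, beside 31.2% and 31.3% over all genes tested. COL17A1 and COL7A1, collagens that tie epithelium to its matrix, rose by 0.81 and 0.55 as log2 ratios, and THBS1, the gene of thrombospondin 1, fell by 1.10. Whether any of these changes bears on the MMP genes was not tested.

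**Figure D5:**
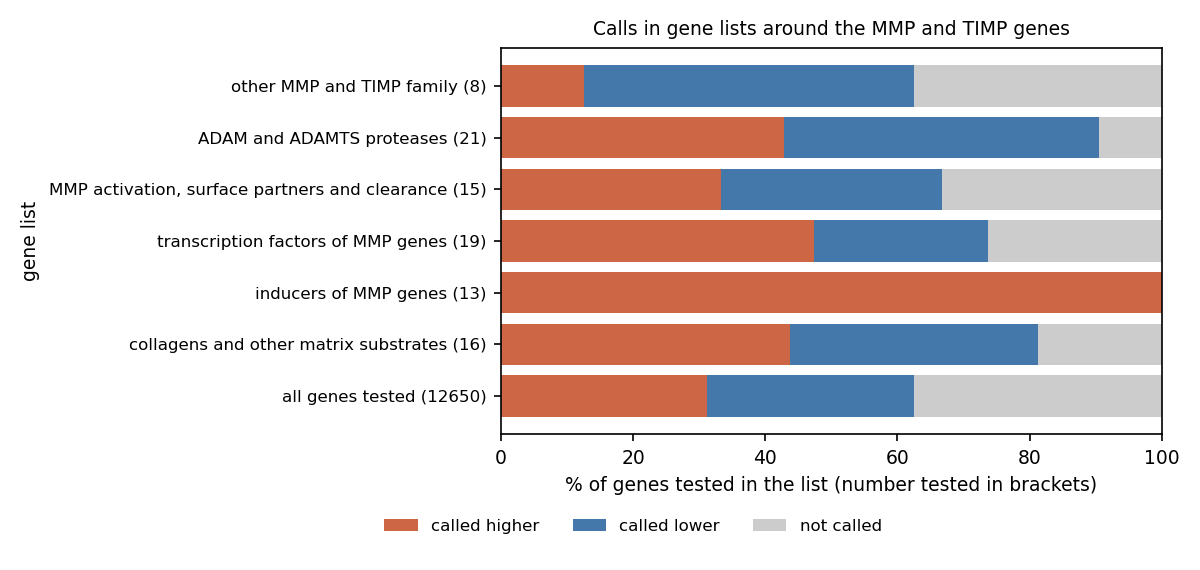
Share of tested genes called higher, called lower or not called in 6 gene lists around the MMP and TIMP genes and among all 12650 genes tested, in percent, with the number tested in brackets. The inducer list is called higher in all 13 of its tested genes, and the other lists hold genes called in both directions, as do all genes tested. The inducer list was written with the rise of inflammatory genes in these samples known, so nothing is read from its count.

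The 5 tested genes whose pattern over the 6 libraries was most like that of MMP1, by the Euclidean distance of log2(CPM + 0.5) centred on the si-NC mean, were IL24, CXCL3, MMP10, GDF15 and XAGE1B, in that order. Their distances were 1.15, 2.23, 2.42, 2.64 and 3.09 log2 units. Their log2 ratios were 4.85, 3.62, 5.13, 3.62 and 4.51, beside 5.27 for MMP1. Centred in this way, the distance depends largely on the size of the rise in si-KNSTRN libraries. IL24 and CXCL3 encode a cytokine and a chemokine and GDF15 a stress-induced cytokine. XAGE1B belongs to a family of nearly identical genes, so its count is uncertain.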

How the data were processed

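What the authors deposited is 1 table of raw whole-number counts per gene symbol, with a column for each of the 6 libraries. HISAT2 2.0.1, featureCounts, fastp 0.20.0, FastQC 0.11.5 and the build GRCh38 are named per the submitters' processing notes. Strand setting, handling of multiply matching reads and annotation: not given in the sources used here. Reads of overlapping genes can therefore not be told apart. Groups and replicate numbers came from the sample titles. The 10 genes, the lists around them and the rule for named genes (the 10 genes, KNSTRN, all tested family genes, the 4 of each list with the smallest p, the cluster neighbours and the 5 genes nearest to MMP1) were chosen with earlier results of these data known. A gene of the matrix substrate list that this rule names is not reported here.

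All 20442 genes entered edgeR 4.0.16 in R 4.3.3 (filterByExpr with a minimum count of 10, TMM scaling, two-sided quasi-likelihood test, Benjamini-Hochberg adjustment over 12650 genes, called under 0.05; p-values measure only the spread between these libraries), and every adjusted p and log2 ratio in the report comes from that fit unless another setting is named. The fit was also run on simulated data, with si-NC means and dispersion taken from the fit to the real libraries. SEs are the fitted coefficient over the root of its F value. A count of 0 allows up to 3 reads, 0.146 to 0.183 CPM, and intervals and floors cover counting error only. No pair of replicates agreed within sampling noise (chi-square per degree of freedom at least 2.21), so none was merged. Positions came from the RefSeq table and sequences from RefSeq promoters, both GRCh38.p14, and transcript lengths and shared windows from GENCODE release 29, a different annotation from the unnamed one behind the counts. Of the table's symbols, 20164 were found in RefSeq and 19369 in GENCODE. Summaries were made in Python 3.11.15 with pandas 2.3.3.

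Alternatives were other scalings, DESeq2 1.42.0, limma-voom (limma 3.58.1), other read minimums, a stricter threshold, the replicate number as a block and leaving out each library. Averages of transcript lengths served as an alternative for levels per length, and shares without each library were chosen after seeing the data.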

Additional observations from a re-analysis of the deposited data

How the results depend on the processing

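The number of genes called was 7005 to 8094 under the alternatives for scaling, tool and read minimum (7905 as reported), 6505 at an adjusted p under 0.01, and 7224 to 7696 without each library in turn. Of the 10 genes, 6 or 7 were called under each alternative, and TIMP2 was the one lost: MMP1, MMP3, MMP10, MMP14, MMP15 and TIMP1 kept direction and call in all 14, with log2 fold changes of 5.12 to 5.53, 3.92 to 4.53, 5.01 to 5.28, 0.53 to 0.61, 0.97 to 1.15 and 0.63 to 0.71. TIMP2 stayed between 0.07 and 0.15 and was not called in 6 of 14. The alternatives reuse the same libraries, and the 10 genes were chosen with this comparison known, so nothing is read from these calls. MMP3 and MMP10 reached the read minimum of the main fit in the si-KNSTRN libraries alone. Among other family genes, 3 to 5 were called without each library in turn; 3 came without si-KNSTRN library 2, where MMP17 (adjusted p = 0.054 by edgeR) and MMP24 (adjusted p = 0.073 by edgeR) were lost. For MMP24 the adjusted p by edgeR, DESeq2 or limma ran from 0.0080 to 0.25 over its alternatives. With the mean length of all transcripts, the 3 TIMP genes made up 58.9% of the summed per-length level in si-NC and 58.2% in si-KNSTRN cells, against 77.1% and 74.7% with the principal transcript; leaving out libraries gave 76.7% to 77.3% and 74.4% to 74.9%. With the replicate block, 7688 genes, 6 of the 10 and 5 other family genes were called, with TIMP2 not called. The numbers do not pair the libraries: deviations of same-numbered libraries correlated at -0.06, 0.06 and -0.03, and not every library correlated best with its own number. Depth limits MMP2, TIMP3 and the si-NC levels of MMP3 and MMP10.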
